A study of Mus musculus with 14 samples.

Results

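The 14 whole-lung arrays of the series were divided by their level of Il6, the gene of interleukin 6, whatever their label said. Il6 has 1 probe set on the array, and an array was called Il6-high above a log2 level of 6 and Il6-low below it, which gave 7 Il6-high and 7 Il6-low arrays of 14. The labels hold 4 groups of mouse lungs. Control lungs (n = 4) came from animals given PBS, VALI lungs (n = 4) from animals under VILI for 4 hours at 40 ml/kg, PBEF+/- lungs (n = 3) from animals marked as without VILI, and VILI PBEF+/- lungs (n = 3) from animals under the same ventilation. Ventilator-induced lung injury (VILI) is damage from breaths of large volume. The text of the series states 30 ml/kg and recombinant human PBEF (the secreted product of Nampt) given into the trachea, so it remains unclear from the labels whether PBEF+/- marks the protein or a genotype, and no strain is stated. Animals were 18-22 weeks old, apart from 8-12 weeks in VILI PBEF+/-. Nothing in the labels says that each array is a separate animal, so the spread between arrays may be technical.

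Interleukin 6 is secreted by macrophages, epithelium, endothelium and fibroblasts within hours of injury, mostly through NF-kB and AP-1 at its promoter. It binds its receptor (Il6ra) together with the shared chain gp130 (Il6st), which switches on JAK kinases and the transcription factor STAT3. STAT3 in turn raises acute phase proteins and Socs3, the inhibitor that shuts the pathway down. In the lung, interleukin 6 in lavage fluid is a common readout of injury by stretch.

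The Il6 levels that made the division stood far apart. In Control the log2 levels were 2.09, 2.13, 2.15 and 2.45, and in PBEF+/- they were 2.10, 2.56 and 10.87. In VALI they were 9.60, 9.84, 9.85 and 2.78, and in VILI PBEF+/- they were 12.75, 12.33 and 10.32. The array just above the threshold was VALI replicate 1 (9.60) and the array just below it VALI replicate 4 (2.78), so no array lay near 6. The mean was 10.79 ± 1.27 (SD, n = 7) in Il6-high and 2.32 ± 0.27 (SD, n = 7) in Il6-low arrays. These values chose the arrays, so they and every other difference between the sides are given as a description, with no test. For 12 of 14 arrays the side was the one the label implies (ventilated high, unventilated low). The library labelled VALI replicate 4 lay on the low side and the library labelled PBEF+/- replicate 3 on the high side. Whether the labels of these 2 libraries were exchanged was not tested, so every value by label that holds them is a value of the libraries so labelled.

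Some other properties moved with the division. All 7 Il6-high arrays had the female pattern of sex-linked transcripts (Xist at 13.4 or above, Kdm5d below 2.4), while 3 Il6-low arrays had the female and 4 the male pattern. The 3 arrays of younger animals were all Il6-high. The difference between the 3' and 5' control probe sets for actin, a measure of RNA integrity, was 0.50 to 0.63 in Il6-high and 0.60 to 0.77 in Il6-low arrays. For the transferrin receptor it ran the other way (1.16 to 1.36 against 1.05 to 1.24) and for Gapdh it overlapped (0.40 to 0.53 against 0.30 to 0.80). Array medians were 4.60 to 4.75 over all 14. The parts of sex, age and RNA integrity in the differences below were not tested, and values within arrays of the female pattern and without the 8-12 week arrays are given with them.

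**Figure D1:**
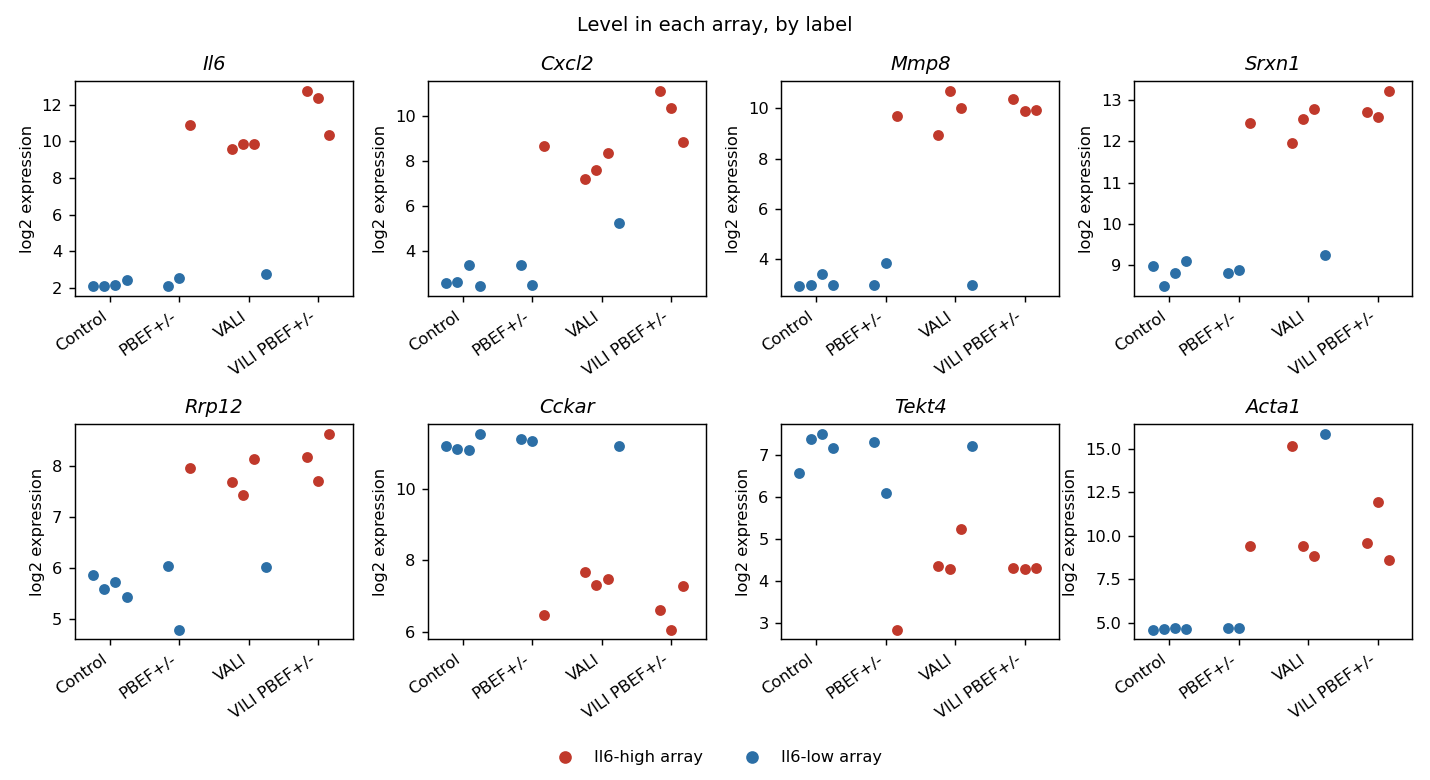
Log2 expression of 8 genes in each of the 14 arrays, by label on the x axis, with 1 point for each array, coloured by the side on which its Il6 level placed it. VALI replicate 4 (Il6 2.78) and PBEF+/- replicate 3 (Il6 10.87) sit apart from the other arrays of their label, while Acta1 is above 8.6 in every VALI and VILI PBEF+/- array and in PBEF+/- replicate 3.

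The sequence upstream of Il6 and of 5 other genes described below is printed to show the letters of 3 motifs bound by the factors just named or by ciliary regulators. The sequences are the bases before the start site on the strand of the gene, from RefSeq on GRCm38.p6, and capitals mark a match. In the first 3 the motif is that of NF-kB (GGG, any 2 bases, then TTTCC, on either strand). The Il6 stretch also holds an AP-1 match (TGANTCA), as does that of Srxn1, and the last 2 hold the X-box (GT, any 2 bases, CC, any 2 bases, GG, any base, then AAC) to which RFX factors of ciliated cells bind.
Il6, chr5:30012864-30013113, plus strand: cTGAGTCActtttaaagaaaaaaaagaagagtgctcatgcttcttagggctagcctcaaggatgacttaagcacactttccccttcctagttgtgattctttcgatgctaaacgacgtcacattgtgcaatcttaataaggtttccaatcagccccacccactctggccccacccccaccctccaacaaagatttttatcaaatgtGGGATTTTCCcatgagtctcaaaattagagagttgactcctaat
Cxcl1, chr5:90891125-90891244, plus strand: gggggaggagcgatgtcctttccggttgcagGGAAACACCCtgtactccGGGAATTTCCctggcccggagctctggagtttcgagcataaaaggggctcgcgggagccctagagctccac
Cxcl2, chr5:90903779-90903898, plus strand: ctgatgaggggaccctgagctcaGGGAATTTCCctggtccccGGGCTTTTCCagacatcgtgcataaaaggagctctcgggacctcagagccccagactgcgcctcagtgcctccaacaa
Srxn1, chr2:152105404-152105523, plus strand: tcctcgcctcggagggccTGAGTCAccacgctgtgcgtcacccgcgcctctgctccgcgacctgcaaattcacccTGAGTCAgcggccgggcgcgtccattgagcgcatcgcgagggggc
Tekt4, chr17:25471410-25471589, plus strand: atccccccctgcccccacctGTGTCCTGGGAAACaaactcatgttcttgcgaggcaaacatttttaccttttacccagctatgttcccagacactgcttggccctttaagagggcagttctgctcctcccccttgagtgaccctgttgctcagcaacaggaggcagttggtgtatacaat
Ccdc151, chr9:22002635-22002694, minus strand: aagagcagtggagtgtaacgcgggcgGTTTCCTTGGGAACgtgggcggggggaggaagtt

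The first 4 of these genes were higher and the last 2 lower in Il6-high arrays. With the base before the start counted as -1, the Il6 promoter held NF-kB letters at -44 to -35 and AP-1 letters at -249 to -243. Cxcl1 held NF-kB letters at -89 to -80 (reverse strand) and -71 to -62, and Cxcl2 at -97 to -88 and -78 to -69. Srxn1 held AP-1 letters at -102 to -96 and -45 to -39. The X-box letters stood at -160 to -147 in Tekt4 and at -34 to -21 in Ccdc151.

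Over 11826 promoters of 9188 genes tested, each read over the 250 bases before the start on both strands, 1.45% held the NF-kB letters. That share was 5.17% among 290 promoters of genes higher by at least 1 log2 without overlap, and 1.03% among 291 promoters of genes lower by as much. The AP-1 letters stood in 4.61% of all promoters, in 11.7% of the promoters of the higher genes and in 5.5% of those of the lower genes. The letters TTCNNNGAA, which STAT factors bind, stood in 5.82% of all, 11.7% of the higher and 5.84% of the lower, and the antioxidant response element TGACNNNGC, which can overlap an AP-1 match, in 11.6%, 16.2% and 11.3%. The X-box letters stood in 1.34% of all promoters, in 2.41% of the promoters of the lower genes and in 0 of the 290 promoters of the higher. The E-box CACGTG, bound by MYC and clock factors, stood in 8.19%, 8.28% and 4.81%. These shares describe letters in a window and say nothing of a factor's binding.

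Across 11360 genes, 775 (6.82%) were higher in every Il6-high array than in any Il6-low array, and 1301 (11.5%) were lower in every Il6-high array. A log2 difference of 1 is a 2-fold difference of expression. Differences of at least that size were held by 307 of the higher and 288 of the lower genes, and the gap between the closest arrays of both sides was over 1 log2 for 81 and 25 genes. The median difference over all genes was -0.0998, -0.0858 after quantile normalization and -0.0574 with each array centred on its median. Only genes whose level lay over the median of the array in 3 or more arrays were kept, and 49 genes (Il6 among them) passed this through Il6-high arrays alone and 81 through Il6-low arrays alone. Those genes make up 27 of the 775 and 40 of the 1301. Among genes named below, Fosl1, Mmp8, Cldn4, Has1, Doc2b, Adamts4, Ereg, Ccl2, Slc7a11, Fga, Fgg and Rgs16 (which overlaps) passed through Il6-high arrays alone. Dcdc2a, Akap14, Rarb and Ccdc151 passed through Il6-low arrays alone. On their other side these lie below the median of each array, so their higher level had to come from the one side and the size of the difference is not a measured one. Without VALI replicate 4 and PBEF+/- replicate 3 the counts were 885 (7.79%) and 1429 (12.6%). Without the 8-12 week arrays they were 957 (8.42%) and 1562 (13.8%), and within arrays of the female pattern, 7 against 3, they were 1373 (12.1%) and 2625 (23.1%). With the same genes, fewer arrays can only keep or raise such a count, so these rises do not show a sharper division.

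The largest share of the variation between arrays ran along the same division. The first principal component held 51.7% of the variance of all genes, with Il6-high arrays at 23.2 to 48.2 and Il6-low arrays at -41.3 to -24.3. After removal of Il6 and of 5 inflammatory lists, 11275 genes gave a first component with 49.0% of the variance and the same arrays on each side. The second component (11.5%) set VALI replicates 1 and 4 (27.9 and 41.9) apart from PBEF+/- replicate 2 (-25.5).

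**Figure D2:**
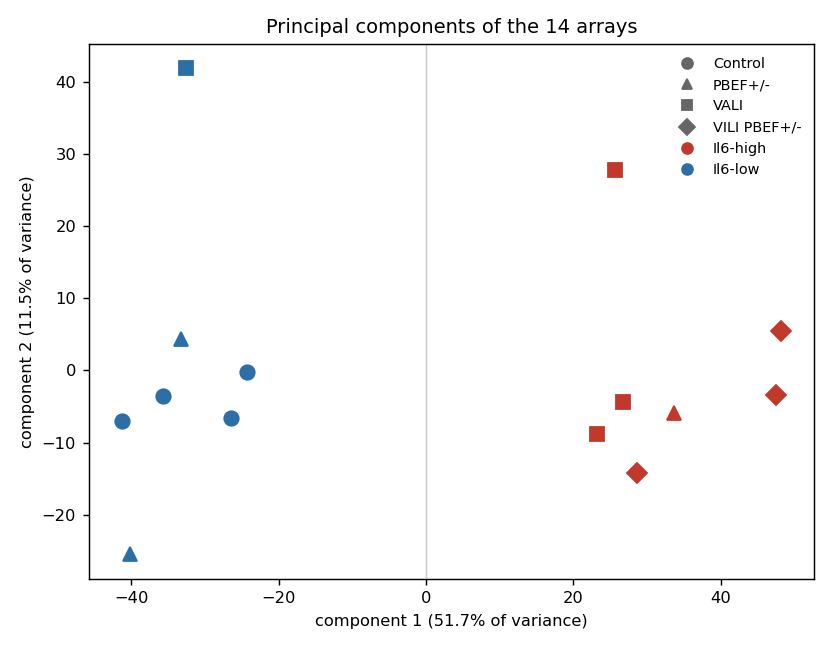
Scores of the 14 arrays on the first (x axis) and second (y axis) principal component of 11360 genes, with the share of variance in percent; shapes give the label and colours the Il6 side. The Il6-high arrays lie between 23.2 and 48.2 on the first component and the Il6-low arrays between -41.3 and -24.3.

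Cytokines and chemokines were higher in Il6-high arrays, and their levels there were unequal. Of 16 tested members of a list of 24, 7 were higher without overlap and 0 lower, against 6.82% and 11.5% of all genes, with a median difference of 2.32. Of the 7, 1 (Ccl2) passed the filter through Il6-high arrays alone. Cxcl2, a chemokine that draws neutrophils, read 2.59, 2.62, 3.40 and 2.44 in Control and 3.39 and 2.49 in PBEF+/- replicates 1 and 2. It read 7.18, 7.58 and 8.37 in VALI replicates 1 to 3, 8.68 in PBEF+/- replicate 3 and 11.11, 10.37 and 8.82 in VILI PBEF+/-. VALI replicate 4, at 5.24, lay between the sides. Cxcl1, its close relative, was 7.92 to 12.09 in Il6-high and 4.89 to 7.18 in Il6-low arrays, a difference of 4.06, and VALI replicate 4 again held the highest low value. Ccl2, which draws monocytes, was at 4.54 to 5.67 in VALI replicates 1 to 3, 6.92 in PBEF+/- replicate 3 and 8.08 to 10.94 in VILI PBEF+/-, against 3.23 to 3.73 in all Il6-low arrays. Cxcl12, a chemokine made at rest, was the only tested member with a lower mean (-0.81, overlapping).

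In the pathway of interleukin 6 itself, receptor genes and target genes differed. Il6ra (0.47), Il6st (0.02), Jak1 (0.21) and Jak2 (0.21) overlapped between the sides, whereas Osmr, the receptor chain for oncostatin M, was 1.40 higher and Stat3 0.85 higher without overlap. Among STAT3 targets, Socs3 was 13.94 ± 0.55 (SD, n = 7) against 10.79 ± 0.28 (SD, n = 7). Its lowest Il6-high level was 13.35 and its highest Il6-low level 11.16. Timp1, an inhibitor of matrix proteases, was 7.74 to 9.90 against 3.12 to 5.33. Saa3, an acute phase protein, overlapped: the Il6-high arrays held 9.52 to 12.79, and VALI replicate 4 held 10.68 while the other Il6-low arrays stayed at 5.50 to 8.32. In all, 10 of 20 tested members of 22 listed were higher without overlap and 0 lower, beside 6.82% and 11.5% of all genes. Of the 10, 2 passed the filter through Il6-high arrays alone. NF-kB targets held 7 higher and 0 lower of 12 tested, among them Ptgs2, the inducible cyclooxygenase (11.32 to 13.75 against 8.10 to 9.96), and Selp, the adhesion molecule P-selectin (7.15 to 9.64 against 4.62 to 5.94).

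Of 22 immediate early genes, which are switched on without new protein synthesis, 7 were higher and 2 lower without overlap. The shares over all genes were 6.82% and 11.5%, so the lower count is near that of all genes. The 1 higher member that passed the filter through Il6-high arrays alone was Fosl1, an AP-1 subunit. It read 7.67, 8.58 and 9.30 in VALI replicates 1 to 3, 9.21 in PBEF+/- replicate 3 and 10.37, 10.52 and 9.33 in VILI PBEF+/-, while the 7 Il6-low arrays held 2.02 to 3.33, below every array median. Myc, a growth regulator, was 8.50 to 10.04 against 3.72 to 6.48. Klf2 and Klf4, which flow of blood keeps high in resting endothelium, were lower by 1.71 and 0.78. Egr1 overlapped, at 12.50 to 13.98 in Il6-high arrays, 12.62 in VALI replicate 4, 12.08 and 12.00 in the Il6-low PBEF+/- arrays and 10.31 to 11.29 in Control.

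Neutrophil transcripts gave the largest median difference of any list, 2.97 over 14 tested of 18 listed. Without overlap 11 were higher and 0 lower, beside 6.82% and 11.5% of all genes. Of the 11, 1 (Mmp8) passed the filter through Il6-high arrays alone. Mmp8, the neutrophil collagenase, was 8.94 to 10.70 in Il6-high and 2.91 to 3.84 in Il6-low arrays. S100a8 was 14.3 to 14.8 against 10.2 to 12.6, and Csf3r, the receptor for G-CSF, 10.4 to 11.2 against 7.22 to 8.58. Il1r2, the decoy receptor for interleukin 1, was 8.73 to 9.996 against 2.69 to 3.95 in 6 Il6-low arrays and 6.55 in VALI replicate 4. The granule genes of immature neutrophils behaved otherwise: Ngp (0.86) and Ltf (0.61) overlapped, and Camp lay at 2.03 to 3.16 and 2.01 to 2.68, below every array median. In whole tissue, more cells of a type and more RNA per cell cannot be told apart. Macrophage and monocyte markers were mixed, with 2 higher (Cd14 by 1.53) and 1 lower (Cx3cr1, -0.85, where the closest arrays were 0.0009 apart) of 14 tested.

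Antioxidant genes were higher in Il6-high arrays of every label. Of 15 tested targets of NRF2, the transcription factor of the oxidative stress response, 10 were higher and 0 lower without overlap (median difference 1.98). The shares over all genes were 6.82% and 11.5%. Of the 10, 1 (Slc7a11) passed the filter through Il6-high arrays alone. Hmox1, heme oxygenase 1, read 11.13, 12.24 and 12.36 in VALI replicates 1 to 3, 12.05 in PBEF+/- replicate 3 and 12.12, 12.23 and 12.57 in VILI PBEF+/-, against 7.24 to 8.00 in Il6-low arrays. Srxn1, sulfiredoxin, was 12.61 ± 0.38 (SD, n = 7) against 8.90 ± 0.25 (SD, n = 7). Slc7a11, the cystine transporter, was 7.97 ± 0.51 (SD, n = 7) against 3.02 ± 0.15 (SD, n = 7). Nqo1 (-0.30), Txn1 (-0.02) and Fth1 (0.08) of the same list overlapped. The mean deviation of the list from its 14-array mean spanned 0.743 to 0.9995 over Il6-high arrays, and that of the cytokine list spanned 0.0364 to 2.59.

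Genes that build the protein synthesis machinery were higher by small but regular amounts. Of 27 ribosome biogenesis genes, 21 were higher without overlap, beside 6.82% of all genes. All 27 had a higher mean, with a median difference of 0.68. Rrp12, a processing factor of ribosomal RNA, was 7.43 to 8.62 against 4.79 to 6.03, and Gnl3, nucleostemin, 10.48 to 11.18 against 9.49 to 9.79. Of 19 aminoacyl-tRNA synthetases 12 were higher without overlap (median 0.51). The 13 cytosolic ribosomal proteins tested of 22 listed all had lower means, but their median of -0.11 was close to the -0.0998 of all genes. Only 1 was past overlap, Rps18 by -0.14, a share near the 11.5% of all genes that were lower. Amino acid genes under ATF4, Psat1 (2.01), Asns (1.17), Chac1 (2.22), Sesn2 (1.80) and Trib3 (1.59), were higher without overlap, whereas the chaperones Hspa5 (0.34), Hyou1 (0.32) and Pdia4 (0.40) of the unfolded protein response overlapped.

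Coagulation and matrix genes followed. F3, tissue factor, was 13.11 to 14.05 against 10.89 to 11.56, Thbs1 11.95 to 14.12 against 10.20 to 11.09 and Plaur, the urokinase receptor, 10.85 to 11.70 against 8.84 to 9.22. Of 11 tested coagulation genes 5 were higher without overlap and 0 lower, beside 6.82% and 11.5% of all genes. Among matrix proteases and inhibitors, 6 of 13 were higher, of which 2 (Mmp8 and Adamts4) passed the filter through Il6-high arrays alone. Adamts4, an aggrecanase, was at 6.72 to 10.74 against 2.79 to 3.63. Epithelial genes outside the lists were also among the 12 largest after Il6: Cldn4, a tight junction protein, was 9.44 ± 0.77 (SD, n = 7) against 3.02 ± 0.26 (SD, n = 7), and Sfn, stratifin, 10.29 to 11.29 against 4.45 to 6.81. Has1, a hyaluronan synthase, Ptx3, a pentraxin, Ereg, epiregulin, Doc2b and Krtap17-1 complete that set with differences of 5.05 to 5.95.

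**Figure D3:**
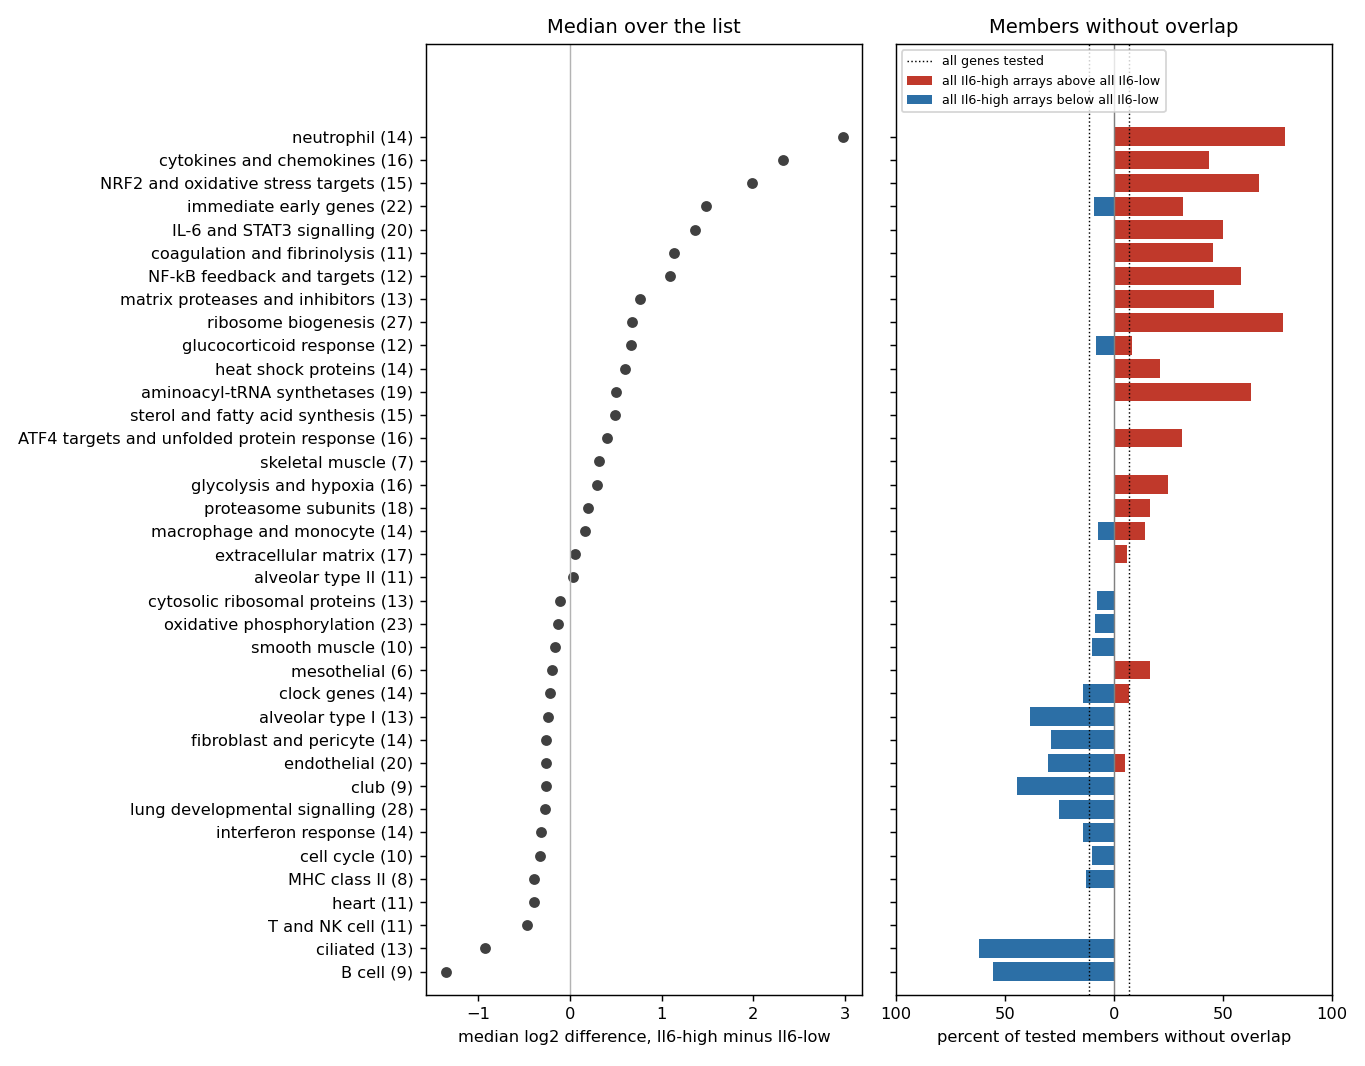
Gene lists with at least 5 tested members (number tested in brackets). The left panel gives the median log2 difference, Il6-high minus Il6-low, and the right panel the percent of tested members higher (red, to the right) or lower (blue, to the left) in every Il6-high array, with dotted lines at the shares over all genes, 6.82% and 11.5%. Neutrophil genes lie highest (median 2.97) and B cell genes lowest (-1.35).

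Lower expression was spread over more genes and was smaller for each. Cckar, the receptor for cholecystokinin, had the largest lower mean: it read 11.20, 11.13, 11.09 and 11.54 in Control, 11.40 and 11.35 in PBEF+/- replicates 1 and 2 and 11.20 in VALI replicate 4. It read 7.67, 7.30 and 7.49 in VALI replicates 1 to 3, 6.47 in PBEF+/- replicate 3 and 6.60, 6.06 and 7.27 in VILI PBEF+/-. The 7 Il6-low arrays thus lay close together and the 7 Il6-high arrays far below them. Dcdc2a (-3.61), Kif26b (-3.20), Mycl (-3.00) and Akap14 (-2.95) came next.

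Genes of motile cilia were the epithelial group with the most members lower. Of 13 tested of 14 listed, 8 were lower without overlap and 0 higher, against 11.5% and 6.82% of all genes, all 13 had lower means, and the median difference was -0.93. Of the 8, 2 passed the filter through Il6-low arrays alone, Ccdc151 among them. Tekt4, a tektin of the axoneme, was 2.84 to 5.23 in Il6-high and 6.10 to 7.50 in Il6-low arrays. Ccdc151, needed to dock outer dynein arms, was 2.64 to 3.05 against 4.37 to 5.94, and Dnali1, a dynein light chain, 6.59 to 7.67 against 8.59 to 9.06. Foxj1, the master regulator of these cells, had a lower mean (-0.93) but overlapped. Within arrays of the female pattern 12 of 13 were lower without overlap, where 23.1% of all genes were.

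Other cell types of the lung were mixed, where 11.5% of all genes were lower and 6.82% higher without overlap. Of 9 tested club cell genes 4 were lower without overlap, among them Cyp2f2, a cytochrome P450 (13.88 to 14.41 against 14.58 to 14.98), while Scgb1a1, the main secretory product, overlapped (-0.15). Of 13 alveolar type I genes 5 were lower, with Rtkn2 at 10.48 to 11.41 against 11.42 to 12.41, a gap of 0.0071. Of 11 alveolar type II genes 0 were higher and 0 lower, and the surfactant genes Sftpa1 (0.07), Sftpb (0.09), Sftpc (-0.10) and Sftpd (0.18) were at 13.9 or above in the mean of both sides, as lung tissue holds them. Endothelial genes split: Kdr, the main VEGF receptor (-1.05), Tek, the angiopoietin receptor (-0.85), Sox17 (-0.77) and Sox18 (-0.85) were lower without overlap, while Pecam1 (0.13), Cdh5 (0.11) and Vwf (0.15) overlapped and Esam, a junction molecule, was 0.48 higher without overlap. Among genes of lung development, Rarb, a retinoic acid receptor, was 1.82 to 2.28 against 4.47 to 5.92. Foxa2, an epithelial regulator, was 9.11 to 9.95 against 10.66 to 11.004, and 7 of 28 tested were lower (Rarb through the filter by Il6-low arrays alone) and 0 higher. B cell genes were lower in 5 of 9 tested, of which 2 passed the filter through Il6-low arrays alone, with a median of -1.35 (Ms4a1, which encodes CD20, 7.24 to 8.55 against 8.71 to 10.31), whereas T and NK cell genes overlapped in all 11 tested, with a median of -0.46.

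Interferon, MHC class II and oxidative phosphorylation genes had medians below 0. Of 14 interferon-stimulated genes 2 were lower without overlap, Usp18 (-0.92) and Ifit2 (-0.92), and 0 higher, a share near the 11.5% of all genes. Of 8 tested MHC class II genes 1 was lower without overlap, also near that share, and the other 7 overlapped. It was Ciita, which switches on MHC class II genes (-0.91 log2, with the closest arrays 0.0169 apart). All 8 had lower means (median -0.40). Of 23 oxidative phosphorylation genes 2 were lower without overlap, Cox4i1 (-0.20) and Cox7a2 (-0.16), also near that share, with a median of -0.13 beside the -0.0998 of all genes. Nampt, the gene of PBEF itself, overlapped between the sides, at 9.28 to 10.79 in Il6-high and 9.21 to 10.36 in Il6-low arrays.

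The list medians were also taken with sex pattern or age held. Within arrays of the female pattern the median difference was 3.05 for neutrophil genes, 2.16 for cytokines, 1.99 for NRF2 targets, 1.54 for immediate early genes, 0.64 for ribosome biogenesis and -1.05 for ciliated cells. In the same arrays it was 0.20 for ATF4 targets and the unfolded protein response (0.41 over all arrays) and 0.11 for sterol and fatty acid synthesis (0.49 over all arrays). Without the 8-12 week arrays it was 2.77 for neutrophil genes (2.97 over all arrays) and 1.88 for NRF2 targets (1.98). It was 1.69 for cytokines (2.32 over all arrays) and 1.01 for immediate early genes (1.48). For NF-kB targets it was 0.80 (1.09 over all arrays) and for heat shock proteins 0.27 (0.60).

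Inside each side the arrays were not alike. The median SD of a gene was 0.169 over the 7 Il6-high and 0.229 over the 7 Il6-low arrays, and 67.2% of genes had the smaller SD in Il6-high. Over the 3 Il6-low arrays of the female pattern it was 0.120. On the low side, Fkbp5, a gene induced by glucocorticoids, read 11.98 and 12.04 in Control replicates 2 and 3 and 8.54 to 10.42 in the other 5 arrays, against 12.87 to 13.29 in all Il6-high arrays. Cdkn1a, Pdk4 and Angptl4 were also higher in those 2 Control arrays than in the other 5. Unlike Fkbp5, they there lay within the range of the Il6-high arrays. Cdkn1a was 12.39 and 12.23 in those 2 Control arrays, 9.03 to 9.90 in the other 5 and 11.46 to 12.94 in Il6-high arrays. Dbp, an output gene of the circadian clock, ran the opposite way, at 10.31 and 10.39 in those 2 arrays, 12.15 to 12.81 in the other 5 and 9.67 to 11.28 in Il6-high arrays. Accordingly the glucocorticoid list differed by 0.67 between the sides but by 0.21 within arrays of the female pattern. Of its 12 members 1 was higher and 1 lower without overlap, near the 6.82% and 11.5% of all genes.

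On the high side, the 3 VILI PBEF+/- arrays differed from VALI replicates 1 to 3 with the largest shares of members among immediate early genes and cytokines. Of 22 immediate early genes, 16 were higher in every VILI PBEF+/- array than in those 3 VALI arrays and 0 lower, against 5.99% higher and 12% lower of all genes. Of 16 cytokines and chemokines 10 were higher and 1 lower, with a median difference of 1.86. Fosb, an AP-1 subunit, was 6.33, 6.49 and 5.70 in VALI replicates 1 to 3 and 9.55 to 11.05 in VILI PBEF+/-. NRF2 targets differed by a median of 0.01 with 1 higher and 2 lower of 15, and neutrophil genes by -0.0025 with 2 higher and 0 lower of 14. Both sets of arrays were chosen in part by Il6, and age cannot be told apart from the label in them.

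**Figure D4:**
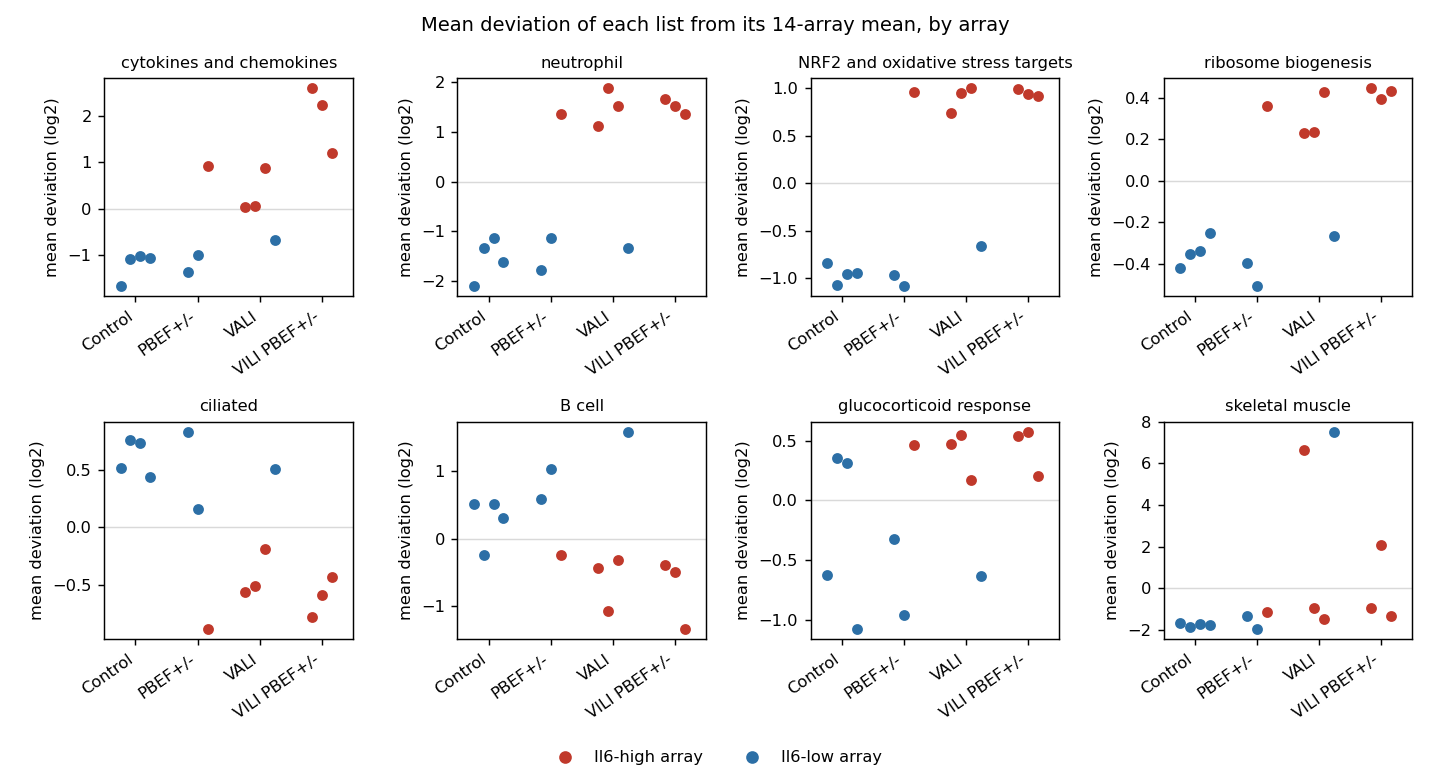
Mean deviation, in log2, of the tested members of 8 lists from their own 14-array mean, 1 point for each array, by label and coloured by Il6 side. NRF2 targets lie at 0.743 to 0.9995 in all Il6-high arrays while cytokines spread from 0.0364 to 2.59; the skeletal muscle list is at 6.66 and 7.53 in VALI replicates 1 and 4.

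The 2 libraries whose Il6 goes against their label were placed between the means of the other arrays, with 0% for Il6-low and 100% for Il6-high. The library labelled PBEF+/- replicate 3 lay at a median of 99.9% over 798 genes higher and at 98.8% over 1369 genes lower without overlap in the other 13 arrays. Of 601 such genes with a difference of at least 1 log2, 13 were nearer the Il6-low side. Among these 13 were the fibrinogen genes Fga (2.77) and Fgg (4.65), which passed the filter through Il6-high arrays alone. This library correlated most with VILI PBEF+/- replicate 1 (r = 0.706 over 11360 genes, which are not independent). The library labelled VALI replicate 4 lay at 11.6% over 855 genes higher and at -0.26% over 1359 genes lower. By list it stood at 26.6% for NF-kB targets, 24.2% for immediate early genes and 18.3% for cytokines, against -7.03% for neutrophil and -10.1% for protease genes. Its extremes over the lists were 40.4% for glycolysis and hypoxia, 38.8% for alveolar type I and -91.7% for B cell genes. Over all genes without overlap in the other 13 arrays, 133 of 855 higher and 77 of 1359 lower genes were past 50% in it. The other Il6-low arrays, each placed in the same way, held 27 to 161 and 42 to 644 such genes. Having such genes is thus not particular to this library. Of 624 genes with at least 1 log2 of difference, 42 were past 50% in VALI replicate 4. They include Lcn2, lipocalin 2, at 13.78 (the other Il6-low arrays reach 13.12), Saa3 at 10.68 and Fos at 13.17 (the others reach 12.37), all chosen here after their values were seen. It correlated most with PBEF+/- replicate 1 (r = 0.41 over the same genes) and at most 0.079 with an Il6-high array.

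**Figure D5:**
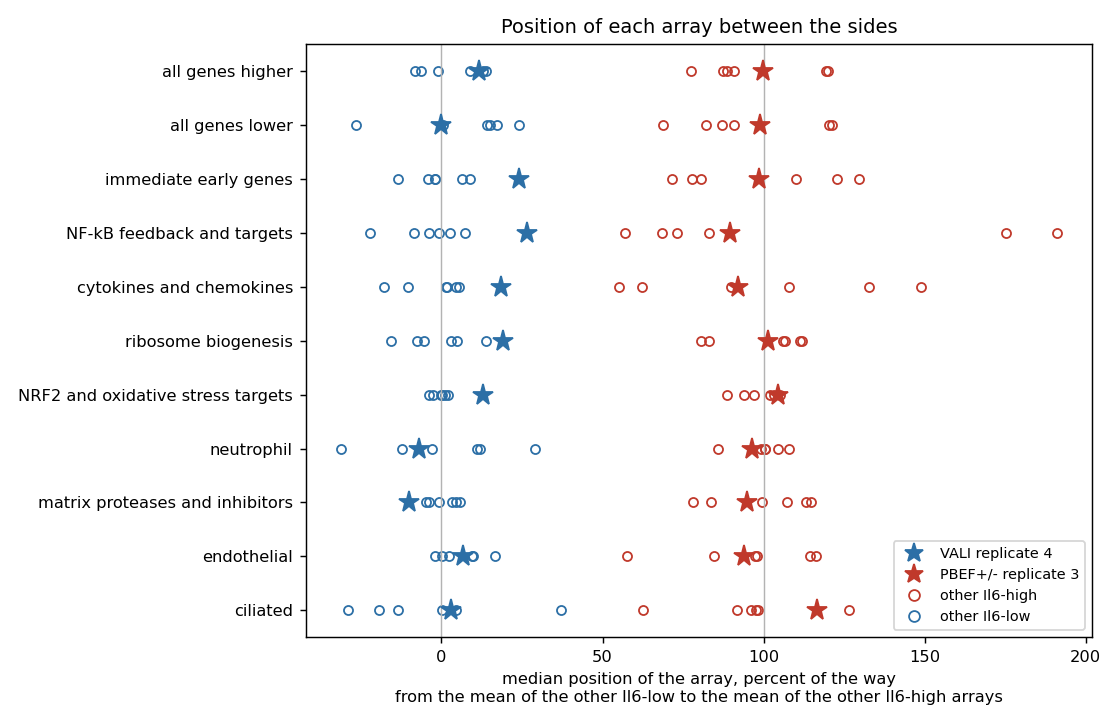
Median position of each array, in percent of the way from the mean of the other Il6-low arrays (0) to the mean of the other Il6-high arrays (100), over the genes of each row that do not overlap in the other 13 arrays. Stars mark the 2 libraries whose Il6 goes against their label; PBEF+/- replicate 3 lies at 99.9% and 98.8% for genes higher and lower, and VALI replicate 4 at 11.6% and -0.26%.

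Skeletal muscle transcripts did not follow the side. Myh1, a fast myosin, was 13.71 in VALI replicate 1, 14.35 in VALI replicate 4 and 8.42 in VILI PBEF+/- replicate 2, and 2.54 to 2.69 in the other 11 arrays. The arrays with a raised level were all labelled ventilated, but other arrays labelled ventilated were low. Of 7 tested members 0 were without overlap, beside 6.82% higher and 11.5% lower of all genes. With so few members this count cannot be set apart from those shares. The median difference was 0.32 with all arrays and 1.98 without the 2 libraries above. Acta1, skeletal muscle actin, had another pattern. It was 4.61 to 4.72 in Control and in PBEF+/- replicates 1 and 2, and 8.63 to 15.15 in all Il6-high arrays, 5 of which (VALI replicates 2 and 3, PBEF+/- replicate 3 and VILI PBEF+/- replicates 1 and 3) had Myh1 at 2.69 or below. In VALI replicate 4 it was 15.83. Heart genes were lower in the mean for all 11 tested (median -0.40), with 0 past overlap, which so few members cannot set apart from the same shares. Of 5 thymus markers, Rag1, Rag2, Ptcra and Dntt were at 3.20 or below in every array. The other, Cd1d1, was the 1 member tested. It overlapped, at 9.23 to 9.90 in Il6-high and 9.67 to 10.49 in Il6-low arrays.

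The comparison that the labels allow does not use Il6, though 12 of 14 arrays fall on the same side in both, so it is not independent of the description above. In limma, with Benjamini-Hochberg adjustment over 11360 genes and all 14 arrays, 950 genes (8.36%) passed an adjusted p of 0.05 between ventilated and unventilated lungs as labelled, 465 higher (4.09%) and 485 lower (4.27%). The smallest adjusted p was 0.028, and 3669 genes had an unadjusted p below 0.05. Of the genes that rose, 316 (68.0%) were also without overlap between the Il6 sides, which is 40.8% of the 775, and of those that fell, 335 (69.1%), which is 25.7% of the 1301. The 5 genes with the smallest p were Itgb8, Riok2, Snhg1, Rgs16 and Plscr1, which rose by 0.62 to 1.75 log2. Itgb8, an integrin that activates TGF-beta, was 6.81, 6.82, 7.67 and 6.91 in VALI and 7.17 to 7.63 in VILI PBEF+/-, against 5.61 to 6.08 in Control and 6.31 to 6.77 in PBEF+/-. It rose by 1.09 ± 0.16 (SE; limma adjusted p = 0.028) and was higher in 7 of 7 ventilated arrays than in any unventilated array. Il6, whose values made the division, differed by 6.22 ± 1.42 (SE) as a description, with no p-value given. Cxcl1 rose by 3.43 ± 0.60 (SE; limma adjusted p = 0.028) and Acta1 by 5.71 ± 1.18 (SE; limma adjusted p = 0.0302). Tek fell by 0.64 ± 0.14 (SE; limma adjusted p = 0.0327) and Cyp2f2 fell by 0.52 ± 0.09 (SE; limma adjusted p = 0.028), whereas Tekt4 (-1.50 ± 0.62 SE; limma adjusted p = 0.121) and Fkbp5 (2.06 ± 0.77 SE; limma adjusted p = 0.0927) did not pass. By list, 9 of 16 cytokines, 12 of 22 immediate early genes, 8 of 14 neutrophil, 7 of 15 NRF2 and 12 of 27 ribosome biogenesis genes rose, beside 4.09% of all genes. Of 13 ciliated genes 4 fell and of 9 club cell genes 5, beside 4.27%. Among the tested members, 3 cytokines and 1 gene each of the immediate early, neutrophil and NRF2 lists passed the filter through Il6-high arrays alone. For ciliated genes, 2 passed through Il6-low arrays alone. The side of such members was set by the filter, so their calls add no support to these counts.

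The count of 950 changed when arrays were left out or the sex pattern was added. It was 0 with the sex pattern as a covariate. It was also 0 without the 8-12 week arrays, which are all of VILI PBEF+/-, so age, label and the number of arrays cannot be told apart there. It was 0 without Control replicate 2, without VALI replicate 1, 2 or 3, without PBEF+/- replicate 1 or 2, and without VILI PBEF+/- replicate 1 or 2. Without Control replicates 1, 3 and 4 in turn it was 271, 154 and 160, and it was 2698 without VALI replicate 4, 3419 without PBEF+/- replicate 3 and 4485 without both. These last were picked by their Il6, so the larger counts are no independent evidence.

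Inside the ventilated and inside the unventilated arrays as labelled, limma called 0 genes in each. For VILI PBEF+/- against VALI the smallest adjusted p was 0.109 and 1191 genes had an unadjusted p below 0.05. The 5 genes with the smallest p were Ccl2, Csf1, Rgs16, Zfp46 and H1f2, each with a limma adjusted p of 0.109. Csf1, the macrophage growth factor, was 10.14 to 10.39 in VILI PBEF+/- and 9.02 to 9.65 in VALI (difference 0.89 ± 0.14 SE), and Ccl2 differed by 5.13 ± 0.84 (SE). Without VALI replicate 3 the count was 1, without PBEF+/- replicate 3 or VILI PBEF+/- replicate 3 it was 9, and without both arrays that go against their label it was 13. For PBEF+/- against Control the smallest adjusted p was 0.593 and 938 genes had an unadjusted p below 0.05. Egr1 had one of the 5 smallest p there, at 12.08, 12.00 and 13.75 against 10.31 to 11.29, a difference of 1.76 ± 0.36 (SE; limma adjusted p = 0.593).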

How the data were processed

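Total RNA of whole mouse lung was measured on 14 Affymetrix arrays. The deposited values are log2 expression levels of 45101 probe sets. Per the submitters' processing notes MAS5 and GCRMA were used, with role and version not given in the sources used here. The values were used without further scaling, and the number of arrays limits their precision. The platform annotation gave 1 symbol to 34958 probe sets, several to 932 and none to 9211. Each gene was represented by its probe set of highest mean, and 11360 of 18194 genes lay over the median of the array in 3 or more arrays. Levels of different genes are not compared.

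The arrays were divided at an Il6 level of 6. Members and gene lists were chosen with earlier results of these data known. A gene is without overlap when all arrays of one side lie beyond all of the other. Labelled groups were compared in limma 3.58.1 (R 4.3.3) with a variance trend in one model of 4 groups, tested on simulated data, with p-values adjusted by Benjamini-Hochberg and called at an adjusted p under 0.05. Named genes are Il6, the 12 largest higher and lower genes without overlap, at most 4 members of a list by size of difference, the 6 with the largest SD inside each side, sex-linked transcripts and the 5 smallest p of each labelled comparison. Other list members, picked after their values were seen, are given where a list is described. Alternatives were the filter, the probe set rule, quantile normalization, centring, left-out arrays, a replicate block, no variance trend and a sex covariate. Replicate numbers did not pair the arrays. Figures were drawn with matplotlib 3.10.9.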

Additional observations from a re-analysis of the deposited data

Results flagged for a closer look

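Il6 itself was left out, since its values placed the arrays. In 23 of 212 groups of 4 or 7 arrays examined, 1 array stood apart by Dixon's ratio, its gap to the nearest array divided by the range of the group (critical values 0.829 for 4 and 0.568 for 7 arrays). Chance alone does this in about 1 of 20 groups. List values are mean deviations in log2 from the 14-array mean.

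VALI replicate 4 is the 1 VALI array on the Il6-low side, so its distance from the others in lists that differ between the sides is a description. It stood apart from VALI replicates 1 to 3 in NRF2 targets (-0.663 against 0.743 to 0.9995, ratio 0.846), in coagulation genes (-0.539 against 0.311 to 0.456, ratio 0.8542) and in matrix proteases (-0.840 against 0.681 to 0.797, ratio 0.929). It did so too in cell cycle genes (0.381 against 0.0418 to 0.0910, ratio 0.8552) and sex-linked genes (1.25 against -0.492 to -0.460, ratio 0.9816). Among Il6-low arrays it stood apart in skeletal muscle genes (7.53 against -1.99 to -1.35, ratio 0.9326), Il1r2 (6.55 against 2.69 to 3.95, ratio 0.6741) and Cxcl2 (5.24 against 2.44 to 3.40, ratio 0.6548).

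In Control, replicate 4 stood apart in interferon genes (0.350 against -0.0653 to -0.0334, ratio 0.9231) and fibroblast genes (0.317 against 0.138 to 0.163, ratio 0.8591). Control replicate 1 stood apart in cytokines (-1.67 against -1.09 to -1.03, ratio 0.8995) and alveolar type II genes (-0.350 against 0.261 to 0.357, ratio 0.8648), and Control replicate 3 in the 1 tested red blood cell gene (2.02 against 0.391 to 0.465, ratio 0.9544).

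Among Il6-high arrays VALI replicate 1 stood apart in NRF2 targets (0.743 against 0.921 to 0.9995, ratio 0.6944), and VALI replicate 3 in club cell genes (0.0664 against -0.304 to -0.163, ratio 0.6182) and macrophage genes (0.579 against -0.139 to 0.140, ratio 0.6109). VILI PBEF+/- replicate 3 did so in T and NK cell genes (-0.913 against -0.346 to 0.0596, ratio 0.5831) and PBEF+/- replicate 3 in Tekt4 (2.84 against 4.28 to 5.23, ratio 0.6028). Among Il6-low arrays PBEF+/- replicate 2 stood apart in developmental genes (-0.0942 against 0.207 to 0.319, ratio 0.7297), Fosl1 (3.33 against 2.02 to 2.13, ratio 0.9117) and Ptx3 (5.55 against 3.73 to 4.28, ratio 0.6993). PBEF+/- replicate 1 did so in the red blood cell gene (-3.31 against 0.391 to 2.02, ratio 0.6948) and Control replicate 4 in Rarb (5.92 against 4.47 to 4.83, ratio 0.7529).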

How the results depend on the processing

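Genes without overlap between the Il6 sides numbered 775 higher and 1301 lower, and 1373 and 2625 within arrays of the female pattern, where 7 arrays are set against 3. Leaving out 1 array gave 786 to 886 and 1308 to 1815, and fewer arrays can only keep or raise these counts. Over the named genes, 4114 of 4154 values under an alternative moved by less than the spread between arrays, and 29 values of 20 genes changed sign. Of 902 such values of list medians 898 moved by less than that spread, and 11 values of 6 lists changed sign. The 950 genes called between ventilated and unventilated lungs as labelled became 99 with no filter (18194 genes tested), 4485 without the 2 arrays whose Il6 goes against their label, 0 with the sex pattern as a covariate and 0 without the 8-12 week arrays. Leaving out 1 array gave 0 to 3419. For VILI PBEF+/- against VALI, 0 genes called became 13 without those 2 arrays and 0 to 9 with 1 array left out, and PBEF+/- against Control gave 0 under every alternative run. Arrays with the same replicate number did not deviate together (r of -0.352 to 0.316 over 19 pairs, 7 of them over 0.1). With the replicate block the counts were 969, 0 and 0. The cause of these shifts was not tested. A second Il6 probe set was not run, since the array has 1, and without the 8-12 week arrays VILI PBEF+/- has no array left. No Il6-high array had the male pattern, so sides could not be compared within it.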

Other observations

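Of 10092 probe sets without a single gene symbol, 3410 passed the filter, and 173 (5.07%) were higher and 142 (4.16%) lower in every Il6-high array. The probe set with the largest higher mean was at 11.71 ± 0.55 (SD, n = 7) in Il6-high and 6.48 ± 0.23 (SD, n = 7) in Il6-low arrays, and the one with the largest lower mean was at 5.33 ± 0.47 (SD, n = 7) and 8.47 ± 0.50 (SD, n = 7).

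The transcript BC018473 divided the arrays in a way that neither the labels nor Il6 give. It was 8.30 to 11.04 in VALI replicates 1 to 4, PBEF+/- replicates 1 and 2 and VILI PBEF+/- replicate 3, and 2.03 to 2.57 in Control replicates 1 to 4, PBEF+/- replicate 3 and VILI PBEF+/- replicates 1 and 2.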
